A study of Homo sapiens with 17 samples.

Results

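The regions described here are places where thyroid hormone receptor beta (TRβ) was listed with T3 but not without it, where the chromatin remodeling subunits BRG1 or ARID1A were also listed, and where PBRM1 was not. They are called the PBRM1-free BAF sites below, a name that describes the lists and not the complexes bound. A TRβ region of the T3 list on chromosomes 1 to 22 or X was a member if it shared no base with a TRβ vehicle region or with a PBRM1 region of either condition, and at least 1 bp with a BRG1 or ARID1A region of either condition. The rule was met by 1064 of the 7186 TRβ T3 regions (14.8%), and by 15.9% of the 6688 that were absent from the vehicle list. The other T3-only TRβ regions served for comparison. In 2567 of them BRG1 or ARID1A was listed and PBRM1 was listed with T3 only (PBRM1-gained sites), in 1480 PBRM1 was in the vehicle list (called constant-PBRM1 sites, although 83 of them had PBRM1 with vehicle only and 1397 in both conditions), and in 1490 none of the 3 subunits was listed (no-remodeler sites). A further 87 had PBRM1 without BRG1 or ARID1A.

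The cells were Nthy-ORI, an immortalised human line derived from normal thyroid follicular epithelium. They were kept without hormone in charcoal-stripped serum and then given 10 nM T3, the active thyroid hormone, or its NaOH vehicle. Each library is labelled with 6 h of exposure, although the protocol text also names a longer one. Nuclei were profiled by CUT&RUN, in which an antibody-tethered nuclease releases the DNA around a bound protein, using antibodies against PBRM1, ARID1A, BRG1 and TRβ. Each of the 8 combinations of antibody and treatment had 2 libraries and 1 deposited list of regions found in both. Nothing in the labels says that the libraries came from separate cultures, so the spread between them may be technical. The lists differed in length, with 38132 PBRM1 regions with T3 and 9115 with vehicle, 55931 and 64289 for BRG1, 41690 and 48976 for ARID1A, and 7186 and 1405 for TRβ. Read depth is not known from these lists, so absence from a list means only that no region was listed there.

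TRβ is a nuclear receptor that binds DNA at copies of a short half-site, often as a heterodimer with RXR, and exchanges corepressors for coactivators when T3 binds. BRG1 is the ATPase of SWI/SNF complexes, which use ATP to slide or evict nucleosomes. ARID1A is a subunit found in canonical BAF complexes, and PBRM1, a multi-bromodomain protein, is found in the related PBAF complexes, which also contain BRG1.

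Few of the members contained a gene's promoter, and the sequences of 6 such promoters are shown so that the motif letters can be seen. Of the 1064 members, 110 held at least 1 whole promoter window of the RefSeq table (GRCh38.p14, the same assembly as hg38), a window being the 300 bases from 250 before to 50 after an annotated start. These windows numbered 141 and belonged to 126 genes. The first 4 below are those in the members of highest TRβ signal value. ECSIT and GCDH were added for their receptor half-sites. Each is read 5′ to 3′ on the strand of the gene. Capitals mark, on either strand, the half-site AGGTCA, the GC box GGGCGG, the CCAAT box CCAAT and the ETS motif CCGGAA.
ZNF414, minus strand, chr19:8514118-8514417: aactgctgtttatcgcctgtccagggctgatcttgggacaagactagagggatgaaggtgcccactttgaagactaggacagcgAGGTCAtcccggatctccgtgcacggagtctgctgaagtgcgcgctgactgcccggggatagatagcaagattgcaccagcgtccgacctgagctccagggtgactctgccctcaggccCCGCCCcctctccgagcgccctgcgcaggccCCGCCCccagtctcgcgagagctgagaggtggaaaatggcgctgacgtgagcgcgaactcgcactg
IBA57, plus strand, chr1:228174320-228174619: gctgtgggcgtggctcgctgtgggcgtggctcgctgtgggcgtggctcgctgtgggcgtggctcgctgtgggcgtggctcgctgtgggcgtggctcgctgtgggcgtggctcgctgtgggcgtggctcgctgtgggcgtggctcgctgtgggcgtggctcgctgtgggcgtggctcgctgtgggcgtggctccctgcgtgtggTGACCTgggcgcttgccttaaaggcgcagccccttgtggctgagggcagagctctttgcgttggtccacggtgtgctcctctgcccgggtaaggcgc
MZF1, minus strand, chr19:58573286-58573585: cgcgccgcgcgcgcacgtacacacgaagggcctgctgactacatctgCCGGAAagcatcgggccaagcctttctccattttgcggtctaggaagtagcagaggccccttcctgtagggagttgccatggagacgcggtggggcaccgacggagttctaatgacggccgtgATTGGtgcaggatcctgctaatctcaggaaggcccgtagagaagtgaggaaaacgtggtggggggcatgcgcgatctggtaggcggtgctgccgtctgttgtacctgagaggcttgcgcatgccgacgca
PPP2R1A, plus strand, chr19:52189802-52190101: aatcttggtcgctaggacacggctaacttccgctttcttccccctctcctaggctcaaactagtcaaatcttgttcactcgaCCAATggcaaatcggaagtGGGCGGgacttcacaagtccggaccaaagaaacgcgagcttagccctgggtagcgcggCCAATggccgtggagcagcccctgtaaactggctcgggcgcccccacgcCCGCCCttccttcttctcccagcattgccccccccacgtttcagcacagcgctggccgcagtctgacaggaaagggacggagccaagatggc
ECSIT, minus strand, chr19:11528816-11529115: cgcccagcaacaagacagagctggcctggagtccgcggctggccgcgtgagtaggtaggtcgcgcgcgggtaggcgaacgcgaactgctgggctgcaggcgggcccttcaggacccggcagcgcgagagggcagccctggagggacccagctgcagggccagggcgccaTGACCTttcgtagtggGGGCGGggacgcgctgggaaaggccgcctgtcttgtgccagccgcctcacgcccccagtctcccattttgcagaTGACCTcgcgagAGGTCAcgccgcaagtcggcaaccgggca
GCDH, plus strand, chr19:12890879-12891178: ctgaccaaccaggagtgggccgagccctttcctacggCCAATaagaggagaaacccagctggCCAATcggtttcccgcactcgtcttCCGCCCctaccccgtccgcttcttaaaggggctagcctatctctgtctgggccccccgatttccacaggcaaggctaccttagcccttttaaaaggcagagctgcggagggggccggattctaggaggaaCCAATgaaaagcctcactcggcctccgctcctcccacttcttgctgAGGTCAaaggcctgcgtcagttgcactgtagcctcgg

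ZNF414 and MZF1 encode zinc finger proteins, IBA57 a mitochondrial iron-sulfur cluster assembly factor, PPP2R1A the scaffold subunit of protein phosphatase 2A, ECSIT an adaptor of Toll-like receptor signalling that also serves complex I assembly, and GCDH glutaryl-CoA dehydrogenase. Of the 6 genes, 5 are on chromosome 19. The IBA57 window lies at an annotated start inside the gene and holds 12 copies of 1 unit of 16 bases. The ECSIT window holds 3 half-sites. Its last 2 face away from each other with 6 bases between them (TGACCTNNNNNNAGGTCA, an everted repeat), beginning at base 260 of the window, past the annotated start. This arrangement was noticed after the sequence was seen. It occurred in 4 of all 34789 promoter windows (0.0115%), of which ECSIT's was the one inside a member. A match of letters is a description and does not show that a factor was bound there.

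As a group the members were narrower and lower in signal than the sites with PBRM1. The members were chosen by their presence in the deposited lists, and the signal value of a TRβ region, which adds the values of its 2 libraries, helped to form the list, so these values are descriptive. The median was 9.73 (quartiles 8.88 and 11.2, range 8.08 to 39.4) in the members, against 10.7 in PBRM1-gained, 10.8 in constant-PBRM1 and 9.02 in no-remodeler sites. Median width was 671.5 bp, against 782, 793 and 585 bp. An irreproducible discovery rate (IDR, which scores how well 2 replicates agree in rank) of at most 0.01 was met by 420 members (39.5%), and by 56.8%, 58.3% and 18.5% of the other groups in the same order. On each of these 3 measures the members fell between the sites with PBRM1 and the sites with no remodeler. The values of the 2 libraries had medians of 4.84 and 4.89, the first column being higher in 571 members. Across the 1064 members they ran weakly opposite (Spearman rho -0.22, over regions that share both libraries and were chosen for their joint value).

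The highest-ranked member lay inside CELF5, an RNA-binding protein gene of the splicing-factor kind (chromosome 19, 3284312 to 3286573, hg38), with values of 20.2 and 19.2 in the 2 libraries. The next lay inside GRIN1, which encodes the obligatory subunit of NMDA glutamate receptors (chromosome 9, 137150302 to 137151805), with 18.03 and 12.5. A region inside CCDC183 on the same chromosome (136799794 to 136801412) had 14.3 and 15.1. For these 3 both libraries gave values far above the medians of all members. The ZNF414 region, also the widest of all members at 2364 bp (chromosome 19, 8512202 to 8514565), had 16.3 and 11.7. Inside ZNF846, another zinc finger gene (chromosome 19, 9785407 to 9786822), the values were 14.3 and 12.4. Inside LYPD3, which encodes a GPI-anchored surface protein (chromosome 19, 43463018 to 43464593), they were 15.8 and 9.20.

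The remaining 6 of the first 12 had summed values from 24.0 down to 19.6. Among them were regions inside GRIN1 again, inside GRID2IP (a scaffold protein of glutamate receptors), IBA57 and MZF1, and beside USE1, a SNARE protein gene. The IBA57 region was the most uneven of the 12, with 7.03 and 14.7 in the 2 libraries. Of the 12, 7 were on chromosome 19 and 3 on chromosome 9, 11 lay inside a protein-coding gene, and 5 lay within 1 kb of a gene end. All 4 BRG1 and ARID1A lists held a region at 8 of them. The narrowest member, of 86 bp (chromosome 9, 75802036 to 75802121; library values 4.52 and 4.30), was outside genes with PCSK5, a proprotein convertase gene, as the nearest, and was listed for BRG1 with vehicle alone. In the plot of the 2 library values the labelled members stand at the upper right, apart from most others.

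**Figure D1:**
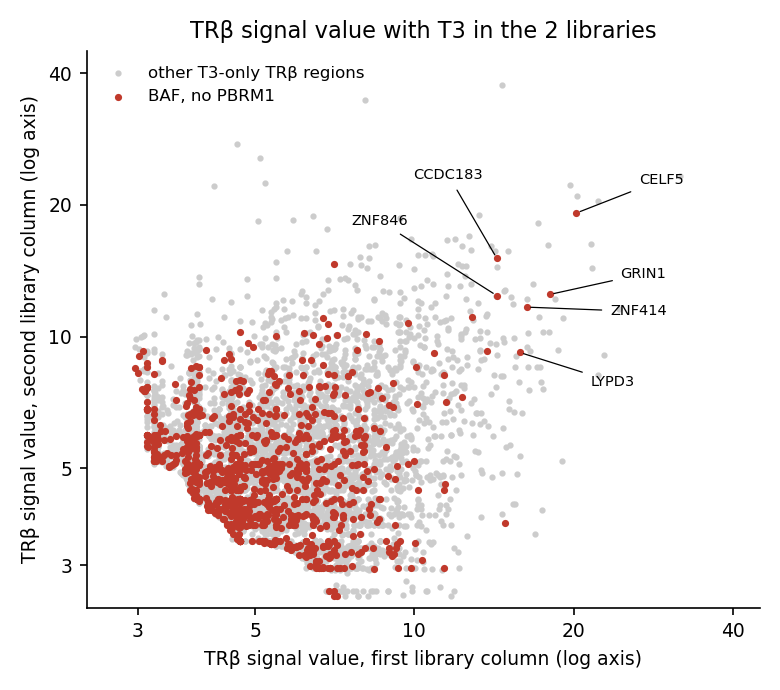
Signal value of each T3-only TRβ region in the first (x axis) and second (y axis) library column of the TRβ T3 list, both log axes without units; red points are the 1064 PBRM1-free BAF sites and grey points the other T3-only regions. The 6 members of highest summed value are labelled, and CELF5 stands highest among the members with 20.2 and 19.2.

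BRG1 and ARID1A were each listed at most members, but often not together and often in 1 condition. These presences chose the members and are given without a test. BRG1 was listed at 668 members with T3 (62.8%, exact 95% interval 59.8 to 65.7) and at 723 with vehicle (68.0%, 65.1 to 70.7). ARID1A was listed at 631 with T3 (59.3%, 56.3 to 62.3) and 690 with vehicle (64.8%, 61.9 to 67.7). Both subunits were listed at 612 members (57.5%), BRG1 without ARID1A at 174 (16.4%) and ARID1A without BRG1 at 278 (26.1%). BRG1 is also a PBAF subunit, so for the 174 the name BAF rests on BRG1 with no PBRM1 region. For 228 members the name rests on vehicle lists only. Binomial intervals here and below cover counting error across regions only.

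The 2 subunits differed in how steadily they were listed across treatments. BRG1 was in both conditions at 605 members (56.9%), in T3 only at 63 (5.92%) and in vehicle only at 118 (11.1%). ARID1A was in both at 431 (40.5%), in T3 only at 200 (18.8%) and in vehicle only at 259 (24.3%). The BRG1 lists were the longer in both conditions. BRG1 regions at members were also wider, with medians of 1378 bp (T3) and 1284 bp (vehicle) against 914 and 870.5 bp for ARID1A. A 1 bp overlap in both conditions is therefore more easily met for BRG1. What this adds to the difference was not tested. In the vehicle lists, 930 members (87.4%) had a BRG1 or ARID1A region, and 134 (12.6%) had one with T3 only. Conversely, 228 members (21.4%) had BRG1 or ARID1A in vehicle lists only, so that neither was listed there with T3.

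Of the 15 possible patterns all occurred, and presence in all 4 lists was the commonest, with 364 members (34.2%). The share in all 4 lists was 76.9% at PBRM1-gained and 83.0% at constant-PBRM1 sites. Next came ARID1A with vehicle alone (149 members), ARID1A with T3 alone (92) and BRG1 in both conditions without ARID1A (88). Exactly 1 list held a region at 327 members (30.7%), 2 lists at 190 (17.9%) and 3 lists at 183 (17.2%). Where the overlap had to reach 50% of both regions, for PBRM1 too, 6.96% of members were in all 4 lists. Of the alternatives, that one changed this share most.

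**Figure D2:**
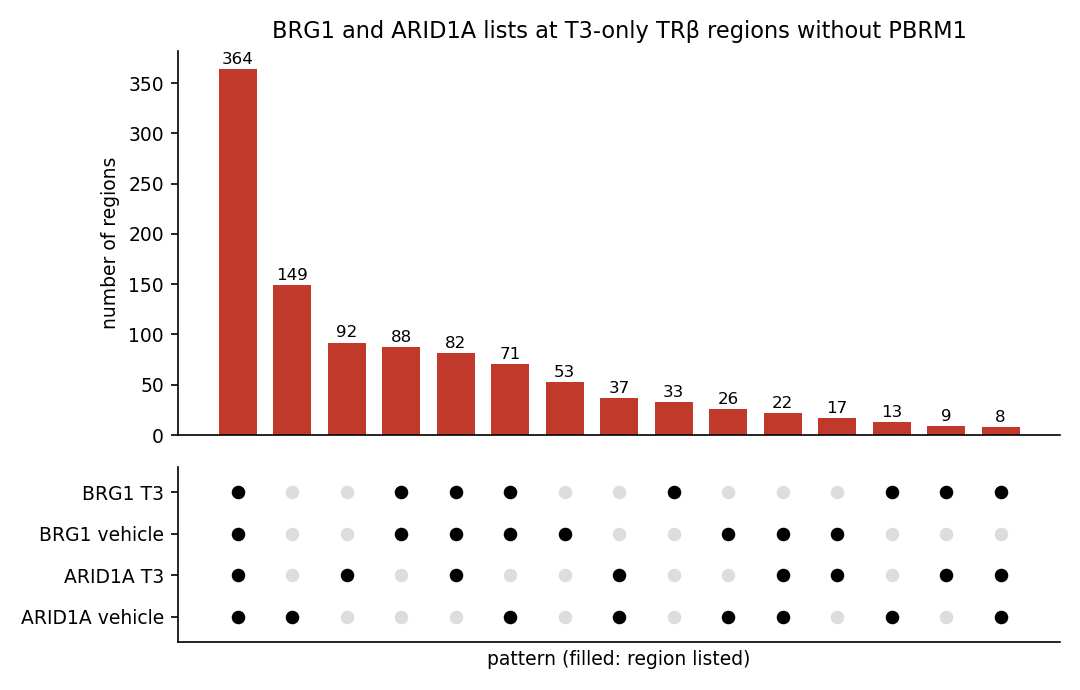
Number of PBRM1-free BAF sites (y axis) with each of the 15 combinations of BRG1 and ARID1A lists; filled circles below a bar mark the lists that held a region. All 4 lists lead with 364 members, followed by ARID1A with vehicle alone with 149.

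Members with all 4 lists were led by the CELF5, GRIN1 and CCDC183 regions given above. Among those with ARID1A in the vehicle list alone, the highest lay inside KNDC1 (chromosome 10, 133176393 to 133177705; 7.47 and 8.14 in the 2 TRβ libraries), SHISAL1 (chromosome 22, 44270076 to 44271345; 6.78 and 7.71) and RGS3, a regulator of G-protein signalling (chromosome 9, 113567539 to 113568723; 7.03 and 7.45). All 3 lay inside genes and far from their ends, the nearest annotated gene end being 16830, 27046 and 29607 bp from the midpoint. Among those with ARID1A in the T3 list alone, the highest were inside RAP1GAP2, a GTPase activator of RAP1 (chromosome 17, 2799387 to 2800403; 8.02 and 6.51), SCRT1 and EXD3 (chromosome 9, 137372734 to 137373821; 8.91 and 4.80). With BRG1 in both conditions and no ARID1A, the highest lay 63 bp from an end of EBNA1BP2, a ribosome biogenesis gene (chromosome 1, 43171828 to 43173186; 8.69 and 7.24). The next was inside NBR1, an autophagy receptor gene (chromosome 17, 43171480 to 43172486; 4.45 and 9.13), and the third was outside genes near TGM2, a transglutaminase gene (chromosome 20, 38182123 to 38182856; 6.74 and 6.73).

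The BRG1 and ARID1A regions at the members ranked lower in their own lists than those at sites with PBRM1. A BRG1 T3 region at a member stood at a median percentile of 73.9 of its list by the authors' signal value, against 83.3 at PBRM1-gained and 86.4 at constant-PBRM1 sites. For BRG1 with vehicle the medians were 77.1, 86.3 and 88.8. For ARID1A they were 67.2, 84.0 and 87.2 with T3, and 67.9, 87.1 and 90.0 with vehicle. The medians of the members were therefore above the middle of every list and below those of the other sites, and the ARID1A gap was the wider. Lower quartiles of the members were 52.5 (T3) and 50.8 (vehicle) for BRG1, and 41.8 and 44.4 for ARID1A. Where several regions of a list overlapped a site, the highest-ranked was taken. Median widths of the BRG1 T3 regions were 1378, 1889 and 2224 bp, and 841 bp over the whole list. Because PBRM1 absence chose the members, these ranks are descriptive, and wider regions also meet the 1 bp rule more easily.

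**Figure D3:**
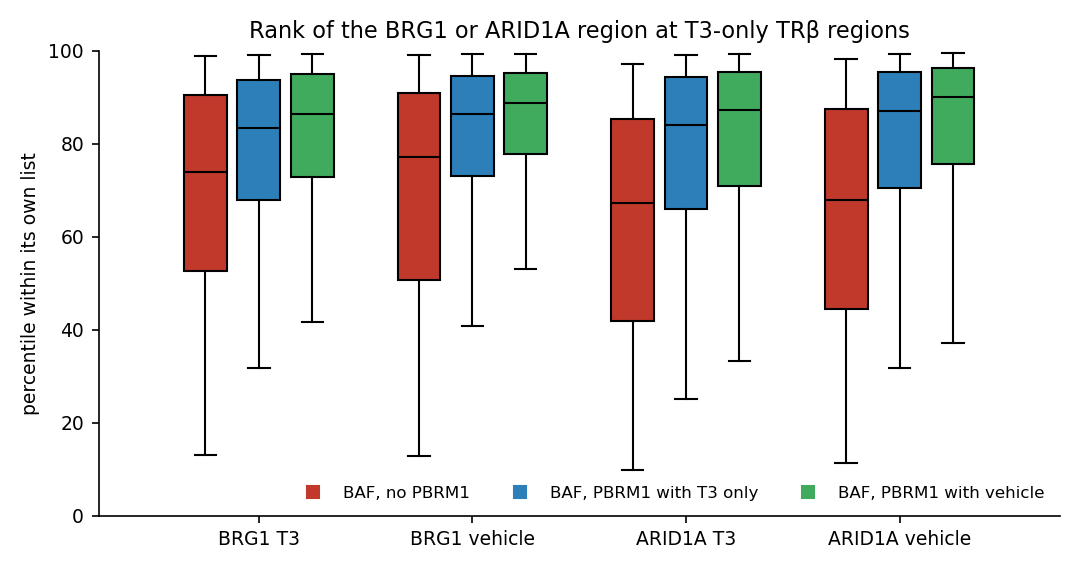
Percentile of the BRG1 or ARID1A region within its own list by signal value (y axis, %) at T3-only TRβ regions, by list and by PBRM1 status; boxes span the quartiles with the median as a line, and whiskers the 5th to 95th percentile. In each of the 4 lists the PBRM1-free sites have the lowest median, from 67.2 to 77.1.

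Fewer members than sites with PBRM1 lay at gene ends. A gene end, meaning either boundary of an annotated protein-coding or lncRNA gene, was at most 1 kb from the midpoint of 293 of 1064 members (27.5%, exact 95% interval 24.9 to 30.3). The share was 64.0% at PBRM1-gained sites (1643 of 2567; log2 odds ratio of members -2.22, SE 0.12) and 66.1% at constant-PBRM1 sites (979 of 1480; -2.36, SE 0.13). At no-remodeler sites it was 7.05% (105 of 1490; 2.32, SE 0.18), so that the members stood between the 2 kinds of site. Adjusted p was 2.45e-90, 9.49e-84 and 1.28e-44 (Fisher's exact test, two-sided, with regions as units and Benjamini-Hochberg adjustment over 6 comparisons). Such p-values describe these lists and not the spread between cultures, because regions are not replicates and neighbours can be alike, and with 1 list a group there is no replicate check. With reciprocal overlap of 50% required, the log2 odds ratios against the PBRM1-gained and constant-PBRM1 sites were -0.99 and -1.11. That setting applied to every list, so sites sharing less than this with a PBRM1 or TRβ vehicle region could also become members. The rule then gave 1881 members, of which 54.7% lay at gene ends, and left 1211 PBRM1-gained and 479 constant-PBRM1 sites. Those members could thus overlap a listed PBRM1 region, and the level of the share rests on the overlap required.

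The distances ran the same way. The median distance from midpoint to the nearest gene end was 3604 bp in the members (quartiles 842 and 13008), 441 bp in PBRM1-gained, 447.5 bp in constant-PBRM1 and 12528 bp in no-remodeler sites. An annotated start lay within 1 kb at 211 of 1035 members (20.4%), where 29 members on chromosome 8 have no start site used here. The shares were 59.0%, 64.1% and 3.61% in the other groups. More than 25 kb from a start were 29.9% of members, against 13.5%, 11.7% and 50.7%. In the plot of cumulative distances the line of the members runs between those of the PBRM1 sites, which nearly coincide, and that of the no-remodeler sites.

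**Figure D4:**
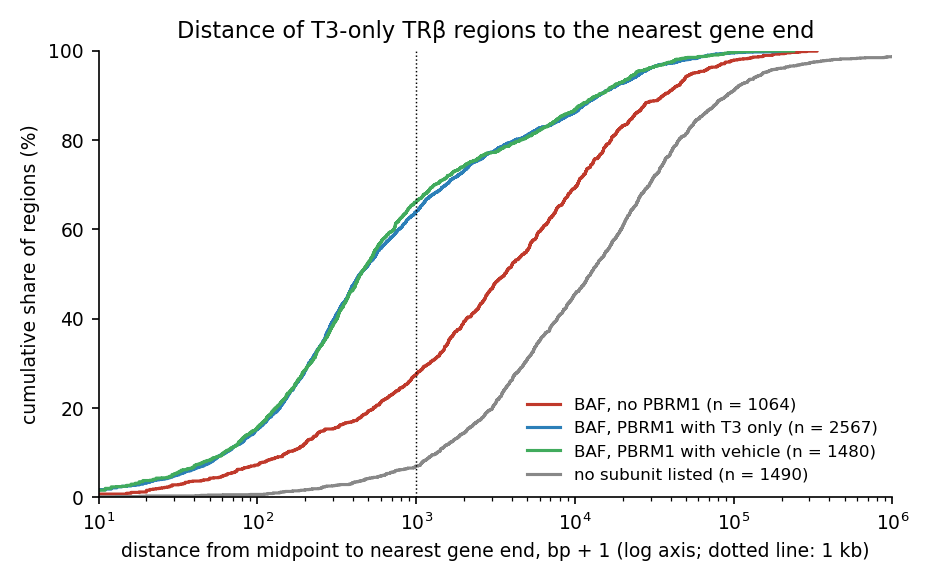
Cumulative share of T3-only TRβ regions (y axis, %) by distance from the region's midpoint to the nearest annotated gene end (x axis, bp + 1, log axis), in 4 groups by the subunits listed there; the dotted line marks 1 kb. At 1 kb the curves stand at 27.5% for the PBRM1-free BAF sites, 64.0% and 66.1% for the sites with PBRM1 and 7.05% for the sites with no subunit.

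Inside the span of a protein-coding gene lay 600 members (56.4%), and 433 (40.7%) were both inside a gene and over 1 kb from any gene end. Outside genes and over 1 kb from an end were 338 (31.8%). Exon and intron positions are not in the gene table. The share inside genes was 61.7% at PBRM1-gained sites (log2 odds ratio of members -0.32, SE 0.11; adjusted p = 0.00346), 63.5% at constant-PBRM1 sites (-0.43, SE 0.12; adjusted p = 0.000446) and 52.2% at no-remodeler sites (0.24, SE 0.12; adjusted p = 0.0400), by the same exact test. These differences were small. The last kept its call in 1 of 12 alternatives and turned to -0.027 and -0.059 at an IDR of at most 0.01. The first 2 each kept theirs in 10 of 12.

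The gene-end share of the members was highest where TRβ signal was highest. Within quartiles of signal value over all T3-only regions it was 21.9%, 22.6%, 26.0% and 45.5% from lowest to highest, against 57.7%, 57.6%, 64.9% and 70.0% in PBRM1-gained sites. In each quartile the members were the lower. It also differed by subunit, a comparison chosen after seeing the data. Members with both BRG1 and ARID1A lay at gene ends in 35.8% (219 of 612) and those with 1 of them in 16.4% (74 of 452). The log2 odds ratio was 1.503 (SE 0.22) with adjusted p = 2.07e-12 (Fisher's exact test, two-sided, adjusted over 6 comparisons chosen in this way). With reciprocal overlap of 50% it was 0.53, and without chromosome 19 it was 1.41. The share was 24.1% with BRG1 and no ARID1A (42 of 174) and 11.5% with ARID1A and no BRG1 (32 of 278; exact 95% interval 8.01 to 15.9). These groups were formed from the list presences that chose the members, so the p describes these lists only. They also differed in median TRβ signal, which was 10.03 with both, 9.16 with BRG1 alone and 9.55 with ARID1A alone. The part of signal in this difference was not tested. BRG1 and ARID1A regions away from any TRβ region showed a contrast of like size. Of BRG1 T3 regions there, 10.5% lay at gene ends without PBRM1 and 38.7% with PBRM1 in the T3 list only (log2 odds ratio -2.44), and over the other 3 lists the ratio lay between -2.35 and -2.02. No test compared these with the members.

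**Figure D5:**
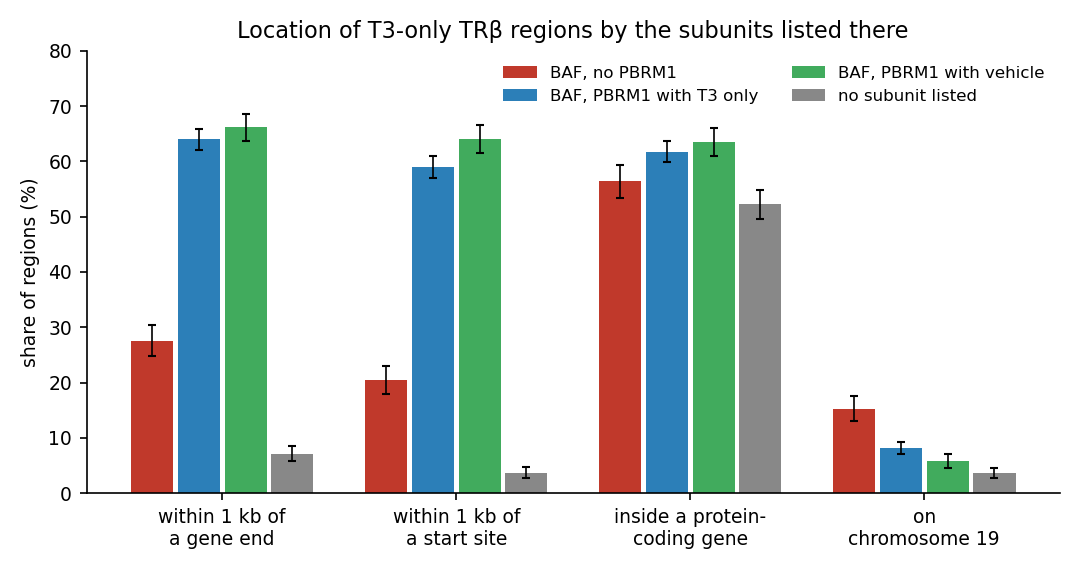
Share of T3-only TRβ regions (y axis, %) at 4 kinds of location, in groups by the subunits listed there; bars start at 0 and error bars are exact 95% binomial intervals across regions. The PBRM1-free BAF sites (red) lie within 1 kb of a gene end in 27.5% and on chromosome 19 in 15.2%.

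Chromosome 19, a short and gene-dense chromosome with many zinc finger genes, held 162 members (15.2%). It carries 7.26% of the protein-coding genes used here. Chromosome 20 also exceeded its share of genes (5.55% of members, 2.69% of genes), as it did in the other groups (4.32%, 5.74% and 5.37%). The chromosome 19 share was 8.18% of PBRM1-gained sites (log2 odds ratio of members 1.01, SE 0.16), 5.74% of constant-PBRM1 sites (1.56, SE 0.20) and 3.56% of no-remodeler sites (2.27, SE 0.24). Adjusted p was 9.93e-10, 1.00e-14 and 8.93e-25 by the same exact test, chosen after seeing the data. The first and second did not pass with reciprocal overlap of 50% (0.40 and 0.27), where the third was 1.21, and the first was 1.89 with all lists at an IDR of at most 0.01. Of the 162, 14 lay inside a zinc finger gene named ZNF (8.64%), against 7 of 210 PBRM1-gained sites on this chromosome (3.33%) and 9 of 53 no-remodeler sites there (16.98%), with no test. The members' share was thus between those of these 2 groups.

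The location of the members also differed there. On chromosome 19, 90 of 162 members lay at gene ends (55.6%, exact 95% interval 47.6 to 63.4), and elsewhere 203 of 902 (22.5%). The share in PBRM1-gained sites was 67.1% on chromosome 19 and 63.7% elsewhere, and in constant-PBRM1 sites 54.1% and 66.9%. In no-remodeler sites it was 28.3% and 6.26%, higher on chromosome 19 as in the members. The log2 odds ratio of members against PBRM1-gained sites was thus -0.71 (SE 0.31) on chromosome 19 and -2.59 (SE 0.13) elsewhere, and against constant-PBRM1 sites 0.08 (SE 0.39) and -2.79 (SE 0.14). The 2 pairs differed by 1.89 (SE 0.34; adjusted p = 6.62e-08) and 2.88 (SE 0.41; adjusted p = 3.15e-11), by Zelen's exact test of equal odds across regions, adjusted over 3 comparisons and chosen after seeing the data. Over 8 alternatives these differences ran from 1.11 to 2.15 and from 1.86 to 3.27, and all 16 passed. Against no-remodeler sites the difference was -0.48 (SE 0.53; adjusted p = 0.444 by the same exact test), and it passed in 1 of 8 alternatives.

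Another member lay within 25 kb of 178 members (16.7%), with no comparison to what gene density would give. Stretches outside chromosome 19 are not described here. A stretch of chromosome 19 from 12676110 to 12836115 held 8, around JUNB, an AP-1 gene, HOOK2, GET3 and DHPS, of which 4 were at gene ends and 4 in all 4 lists. A second from 49812906 to 49930325 held 6 around AKT1S1, which encodes an mTORC1 inhibitor, and ATF5, with 5 at gene ends. Another from 35644930 to 35745658 held 5 near ETV2, COX6B1 and U2AF1L4.

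Of single genes, GRIN1 held the most members within its span. Beside the region given above, the GRIN1 members were at 137151973 to 137153934 (12.9 and 11.1), 137157483 to 137158428 (3.87 and 6.78) and 137158700 to 137159602 (5.47 and 5.11). Each of the 4 had a different set of BRG1 and ARID1A lists, and the 2 stronger ones were 4495 and 2366 bp from the nearest PBRM1 region while the 2 weaker ones were 182 and 233 bp from one. AKT1S1, PTPRN2, which encodes a phosphatase-like protein of secretory granules, and SH2D3A, an SH2-domain adaptor gene, held 3 each. The highest of these were in AKT1S1 (chromosome 19, 49876643 to 49877988; 11.4 and 8.16) and SH2D3A (chromosome 19, 6766558 to 6767925; 8.52 and 7.62). The SH2D3A members were all in the 4 lists and the 3 PTPRN2 members had ARID1A alone.

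The promoter windows inside members were less rich in GC boxes than those inside sites with PBRM1. Motifs were searched on both strands in 1 window per member, the one nearest the midpoint. The ECSIT window printed above was not the nearest in its member, so it was not counted. The GC box GGGCGG, a binding sequence of SP factors, was in 74 of 110 (67.3%), against 86.2% of 870 PBRM1-gained (log2 odds ratio -1.61, SE 0.32; adjusted p = 3.29e-06) and 84.4% of 550 constant-PBRM1 windows (-1.40, SE 0.34; adjusted p = 7.46e-05), in exact tests of the same kind, chosen after seeing the data. Of all 34789 windows 44.9% held it. The difference did not pass with reciprocal overlap of 50% (-0.47 and -0.28), and against PBRM1-gained windows it was -0.79 with all lists at an IDR of at most 0.01. Median GC content was 62.7%, against 69.7% and 69.3%, and 58.7% over all windows. The CpG count per window had medians of 23, 31 and 31, and 14 over all. GC content moved with the GC box share, and its part in the difference was not tested.

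The half-site AGGTCA was in 9 of the 110 member windows (8.18%, exact 95% interval 3.81 to 14.96) and in 13.8% of all windows. It was in 14.97% of member windows with all lists at an IDR of at most 0.01 and in 13.7% with ranks in the 2 libraries at most 25% of the list apart, so no contrast with all windows is drawn. The shares at PBRM1-gained and constant-PBRM1 windows were 8.05% and 6.36%. The direct repeat of that half-site with 4 bases between (DR4, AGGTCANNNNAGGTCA), the arrangement best known for TRβ with RXR, was in 0 of 110, and in 7 of all 34789 windows (0.0201%). The CCAAT box was in 45.5% of member windows (all windows, 34.6%), the ETS motif CCGGAA in 30.9% (17.2%), the E-box CACGTG in 12.7% (7.24%), the TEAD motif GGAATG in 16.4% (14.1%) and the AP-1 motif TGANTCA in 3.64% (7.69%), with no test. At PBRM1-gained and constant-PBRM1 windows the CCAAT box was in 42.2% and 39.1%, the ETS motif in 24.8% and 23.6%, the E-box in 12.4% and 10.2%, the TEAD motif in 9.43% and 11.8% and the AP-1 motif in 4.02% and 2.73%. For the CCAAT box, ETS motif, E-box and AP-1 motif the members were therefore nearer to the other promoters with BRG1 or ARID1A than to all windows. For the TEAD motif they were nearer to all windows. These windows cover 110 of the 1064 members, and the other members' sequences were not used here.

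A member lay within 25 kb of an annotated end of 1686 of 19974 protein-coding genes (8.44%), while any TRβ T3 region did so for 7533 (37.7%). For 596 genes (2.98%) a member was the only TRβ T3 region within 25 kb. No protein-coding gene end lay within 25 kb of 266 members (25%). Proximity does not show that a gene is regulated, and 1 member can count for several genes. The 18 gene lists below were compiled for this work with earlier results of these data known, so their counts are read only beside these shares. Of the 19974 genes 1451 are on chromosome 19, and without that chromosome the genes near members numbered 1328. The 8.44% is thus not matched to a list with genes on chromosome 19. What that chromosome adds to each count was not tested.

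Among AP-1 and related bZIP factors, 6 of 19 genes had a member (any TRβ T3 region, 16 of 19). They were FOSB, JUNB, ATF5, ATF7, MAFF and MAFK, and for 2 of them, with ATF5 among these, no other TRβ T3 region was near. The members near FOSB, JUNB and ATF5 were on chromosome 19. The FOSB member lay at the start of its neighbour RTN2 (chromosome 19, 45496528 to 45497489; 6.73 and 11.03), the ATF5 member inside ATF5 (chromosome 19, 49929279 to 49930325; 7.13 and 5.93), and the ATF7 member inside ATF7 (chromosome 12, 53625919 to 53626461; 7.40 and 5.37). All 3 were in the 4 lists and within 1 kb of a gene end.

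In the glycolysis and hypoxia list 6 of 25 genes had a member (any TRβ T3 region, 19 of 25), and for 4 of them it was the only TRβ T3 region near. The genes encode hexokinase (HK1), phosphofructokinase (PFKP), the regulatory enzymes PFKFB3 and PFKFB4, enolase (ENO1) and pyruvate kinase (PKM). The PFKFB4 member lay inside the gene (chromosome 3, 48558073 to 48559199; 6.05 and 6.04), nearly even between the libraries. The ENO1 member lay outside it (chromosome 1, 8903317 to 8904395; 6.95 and 4.21), and the PKM member inside it (chromosome 15, 72226419 to 72227513; 3.86 and 6.90). All 3 were in the 4 lists and over 1 kb from a gene end.

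Of the BCL2 family, which governs mitochondrial cell death, 3 of 17 genes had a member (any TRβ T3 region, 8 of 17). BCL2L1 and BMF had no other TRβ T3 region near. The BCL2L1 member lay inside this antiapoptotic gene (chromosome 20, 31665009 to 31665475; 5.11 and 4.44), and the one near BAD lay at chromosome 11, 64248562 to 64249742 (4.90 and 5.46), with PPP1R14B as the nearest gene. Both had ARID1A with vehicle alone. The BMF member (chromosome 15, 40104764 to 40105586; 3.47 and 5.36) had BRG1 in both conditions and no ARID1A. Classic T3-responsive genes had a member at 4 of 26, namely PCK1, ANGPTL4, BCL3 and DBP (any TRβ T3 region, 16 of 26). Of these genes only PCK1 had no other TRβ T3 region near. The PCK1 member, near this gluconeogenic enzyme gene (chromosome 20, 57559296 to 57559719; summed value 10.07), was listed for BRG1 with vehicle alone. The DBP member lay inside CA11, within 25 kb of this circadian bZIP factor gene (chromosome 19, 48645505 to 48646556; 4.92 and 5.11). Both it and the ANGPTL4 member, near a lipase inhibitor gene (chromosome 19, 8355699 to 8355897; 4.28 and 4.599), were in the 4 lists. No member lay within 25 kb of KLF9, THRB or THRA.

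Other nuclear receptors had a member at 3 of 35 genes (any TRβ T3 region, 18 of 35), and the one at NR2F6 was the USE1 region (9.72 and 10.8). The counts were 4 of 27 for TGF-beta, mesenchymal and matrix genes, 3 of 22 for epithelial junction and keratin genes, 3 of 25 for JAK-STAT and interferon genes, 3 of 27 for cell cycle genes, 3 of 28 for the WNT pathway and 3 of 32 for receptor kinase, RAS-MAPK and PI3K genes. Any TRβ T3 region was near 16, 14, 16, 19, 17 and 22 genes of these lists, in the same order. The member counts were 2 of 24 for lipid and cholesterol synthesis, 2 of 29 for SWI/SNF subunits and 1 of 20 for nuclear receptor coregulators. For these lists any TRβ T3 region was near 14, 21 and 9 genes. CDK4, a cyclin-dependent kinase gene, had one within 25 kb at chromosome 12, 57744303 to 57745115 (7.88 and 6.10), with TSPAN31 as the nearest gene. SCD, a fatty acid desaturase gene, had one at chromosome 10, 100345685 to 100346262 (4.30 and 8.03). CLDN4, a claudin gene, had one within 25 kb at chromosome 7, 73850626 to 73851428 (4.51 and 8.88), with METTL27 as the nearest gene. ITGA5, an integrin gene, had one at chromosome 12, 54423293 to 54423696 (8.08 and 3.28). In these last 3 one library carried most of the sum. In 4 lists no gene had a member, namely the TR and RXR genes (5), deiodinases and hormone transporters (13), thyroid lineage and hormone synthesis genes (16), and RUNX and TEAD-YAP genes (16). Any TRβ T3 region was near 3, 4, 7 and 9 of their genes. With a member near 8.44% of all genes, lists this short can hold none, and nothing is read from their absence.

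Many members without PBRM1 had a PBRM1 region close by. The gap to the nearest PBRM1 region of either condition had a median of 4230 bp, and ran from 1 to 1179430 bp. It was at most 500 bp in 177 members (16.6%), 1 kb in 291 (27.3%), 5 kb in 559 (52.5%) and 25 kb in 837 (78.7%). A TRβ T3 region with PBRM1 lay within 25 kb of 382 members (35.9%). At the edge of the rule, the members nearest to a PBRM1 region lay inside FLAD1, the FAD synthase gene (chromosome 1, 154983382 to 154984204; gap 1 bp, values 3.78 and 7.87), inside MAFK (chromosome 7, 1535265 to 1535691; gap 3 bp, 5.96 and 3.89) and near GPAT2 (chromosome 2, 96062528 to 96063050; gap 4 bp, 6.44 and 3.73). The sites left out by the smallest overlap were inside LOC400499 (chromosome 16, 11411157 to 11411588; 4 bp shared, 4.90 and 4.11), near TGFB2 (chromosome 1, 218479886 to 218481268; 5 bp, 5.03 and 5.44) and inside ABCB6 (chromosome 2, 219217983 to 219218344; 6 bp, 3.72 and 5.19). Of the members 25 had a PBRM1 region within 50 bp, and of the 4047 sites with BRG1 or ARID1A that PBRM1 left out, 22 shared at most 50 bp with one.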

How the data were processed

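CUT&RUN libraries of Nthy-ORI cells (2 for each of 8 groups, from 500000 cells each per the labels' protocols) were analysed through the 8 deposited lists, 1 per group. The IgG library was not analysed here. Tools named in the submitters' processing notes are Bowtie2, MACS2, Trim Galore and CASAVA 1.7, with hg38 as the genome build. The sources used here do not give parameters, read depth or the use of the IgG library. The lists have the layout written by the IDR method, per the file layout. The authors' signal value of a region is the sum of its 2 library values. The deposited score column is a scaled IDR, and the deposited −log10 of the IDR showed that rates reach 0.05. Which library column is which numbered replicate is not stated. The 16 summit columns were not used.

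Regions on chromosomes 1 to 22 and X were classed by overlap of at least 1 bp, and coordinates are given 1-based. Locations came from the RefSeq gene table of GRCh38.p14 (gene ends, without strand or exons) and from the RefSeq promoter windows, whose start sites on chromosome 8 were not used here. Fisher's exact test (two-sided) compared shares between groups of regions, and Zelen's exact test compared odds ratios between chromosome 19 and the rest. Log2 odds ratios had 0.5 in addition in every cell, except in the alternatives within quartiles or within chromosomes. Those used the Mantel-Haenszel pooled odds ratio and its test in place of Fisher's. In each family p was adjusted by Benjamini-Hochberg (threshold 0.05). Shares have exact (Clopper-Pearson) 95% binomial intervals. Overlap calling was tested on simulated data, with 0 wrong of 20000 calls. Named are the 12 members of highest signal value, the 3 highest of each of the 4 commonest patterns, the 3 nearest to each side of the PBRM1 threshold, up to 3 genes of a list with the highest values, the widest and narrowest members, and the printed promoters. Of the genes from the lists, those of the first lists are given in full and others as counts with examples; clusters and genes with several members were chosen after their values were seen. Some items that these rules name are not reported here. A region is named by the nearest protein-coding gene end within 100 kb. The members and gene lists were chosen with earlier results of these data known. Alternatives, some added after seeing the data, are given in the closing section. Computation used scipy 1.17.1, statsmodels 0.14.6, pandas 2.3.3 and numpy 2.4.6 in Python 3.11.15, and plots used matplotlib 3.10.9.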

Additional observations from a re-analysis of the deposited data

How the results depend on the processing

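The gene-end differences kept direction and call in every alternative run: -2.59 to -0.988 against PBRM1-gained sites (17 alternatives), -2.80 to -1.11 against constant-PBRM1 sites (17) and 1.697 to 2.76 against no-remodeler sites (15). The gene-span differences did not. Against PBRM1-gained sites they missed the threshold with TRβ at an IDR of at most 0.01 (-0.33) and all lists so (-0.24), and against constant-PBRM1 sites with TRβ so (-0.33) and with a rank difference between libraries of at most 25% (-0.30). Against no-remodeler sites they turned to -0.027 (TRβ) and -0.059 (all lists) at that IDR. They missed it with BRG1 and ARID1A lists of the PBRM1 T3 length (0.16), intervals of the first (0.19) or second library (0.22), lncRNA genes included (0.18), the rank limit (0.18), reciprocal overlap of 50% (0.068), quartiles of signal (0.20) or width (0.18), and without chromosome 19 (0.22). Reciprocal overlap took the GC box differences to -0.47 and -0.28, and the chromosome 19 share to 0.40 and 0.27. Because that setting also applied to the PBRM1 lists, it admitted sites with a smaller PBRM1 overlap as members. The gene-end difference on chromosome 19 against no-remodeler sites passed with all lists at the stricter IDR (-2.28). The cause was not tested.

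Counts moved with the rule itself. Members numbered 420 (TRβ at the stricter IDR), 628 (all lists), 479 (rank limit) and 1881 (reciprocal overlap). Genes near them numbered 839 (TRβ), 827 (rank limit), 3066 (reciprocal overlap), 687 (within 5 kb) and 3795 (within 100 kb). Presence in all 4 lists was 45.2% (TRβ), 44.4% (all lists) and 6.96% (reciprocal overlap), and ARID1A in 1 condition only 37.1%, 36.8% and 56.3%. Median signal was 11.5, 11.9 and 10.5 in the same order, and median width 817, 846 and 752 bp, 553 and 573 bp with single-library intervals, and 697 bp with the rank limit. The share at the stricter IDR was 50.7% (rank limit) and 52.6% (reciprocal overlap). GC box windows were 78.2% (all lists) and 82.6% (reciprocal overlap), and half-site windows 14.97% (all lists).

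Settings by TRβ signal, BRG1 rank, presence in all 4 lists and chromosome, and the comparisons of chromosome 19, GC boxes and subunit groups, were added after seeing the data. No paired analysis was possible because each deposited list combines the 2 libraries of a group, and for the same reason leaving out a replicate was not run. Absence of a PBRM1 region depends on depth, which is unknown, and on the lengths of the lists.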

Other observations

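Annotated microRNA hairpins lay inside 3 members, with mature sequences from RefSeq (GRCh38.p14) given 5′ to 3′ and the seed, bases 2 to 8, in capitals. They are shown to let the seeds be compared, and no 2 of them were alike.
hsa-miR-484, chr16:15643301-15643322, plus strand: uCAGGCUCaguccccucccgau
hsa-miR-4435, chr2:87629764-87629785, plus strand: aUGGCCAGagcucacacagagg
hsa-miR-4521, chr17:8186948-8186969, plus strand: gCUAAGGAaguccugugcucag

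The member at MIR484 (chromosome 16, 15642817 to 15643694) had TRβ values of 7.99 and 4.79 in the 2 libraries, and its midpoint was 102 bp from an annotated start. The member at MIR4435-1 (chromosome 2, 87629656 to 87630411) had 4.69 and 3.71, and that at MIR4521 (chromosome 17, 8186479 to 8187126) 3.73 and 6.62. The first and second were in all 4 BRG1 and ARID1A lists, and the third was listed for BRG1 with vehicle alone. These lists hold no RNA measurement, so microRNA levels are not known here.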
